A study of Mus musculus with 4 samples.

Results

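Imprinted growth genes are genes of which mainly the copy from one parent is transcribed, and many of them set the growth of the embryo and the state of progenitor cells. A set of 9 of them was chosen by gene name: H19, Meg3, Dlk1, Peg3, Mest, Plagl1, Cdkn1c, Grb10 and Ndn. Of these, 7 had a row among the 28649 gene rows and all 7 were among the 15240 genes that passed the filter on low counts. H19 and Meg3, both long noncoding RNAs made from the maternal chromosome, were not analysed here.

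Fibro-adipogenic progenitors (FAPs), stromal cells that lie between muscle fibres and can form fat and fibrous tissue, were sorted as Sca1+ cells from skeletal muscle of wild-type C57Bl/6 mice of an age not given in the sources used here. They were grown to about 80% confluency, transfected for 24 hours with a biotin-tagged miR-206 mimic or a control mimic, and kept for 48 hours in basal medium with 10% horse serum. RNA captured with each mimic was sequenced in 2 libraries, so 4 libraries were compared, and no library of unselected RNA was analysed here. The comparison asks which transcripts were captured more with miR-206 than with the control. Enriched and depleted below mean higher and lower in the miR-206 pulldown at an adjusted p under 0.05, and a p measures only the spread between these libraries, since nothing says that they came from separate mice or cultures.

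Imprinted genes lie in domains in which a stretch of DNA methylated on one parental chromosome sets which genes of the domain are transcribed. In general, paternally expressed genes tend to favour growth and maternally expressed genes to restrain it. In mesenchymal tissues these genes are linked to progenitor maintenance and to the choice of the fat lineage. Among the members measured, Dlk1, Peg3, Mest, Plagl1 and Ndn are paternally expressed, and Cdkn1c and Grb10 maternally (Grb10 is expressed from the paternal copy in neurons). The libraries do not tell the parental copies apart, so these classes are background and were not measured.

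The bait is shown with its seed, bases 2 to 8, in capitals, because the seed is the stretch through which a microRNA pairs with most of its targets. Beside it stand the microRNAs encoded within the span of a measured member, here Mest, so that their seeds can be set against the bait's. The sequences are the mature forms of RefSeq (GRCm38.p6), while that of each transfected mimic was not given in the sources used here.
miR-206-3p: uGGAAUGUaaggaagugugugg
miR-335-5p: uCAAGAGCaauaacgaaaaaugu
miR-335-3p: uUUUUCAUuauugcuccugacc
Mature miR-206-3p is encoded at chr1:20679055-20679076 on the plus strand, and miR-335-5p lies at chr6:30741314-30741336, also on the plus strand. The reverse complement of the bait's seed reads ACAUUCC from 5′ to 3′. Neither miR-335 form shares the bait's seed. No transcript sequences were used here, so matches to the seed were not counted in the members.

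Only 2 of the 7 measured members were called, Peg3 as enriched and Plagl1 as depleted. Among all 15240 tested genes 15.3% were enriched and 6.19% depleted, 21.5% in all, and a single call in each direction among 7 genes is too few to be set apart from these shares. The median log2 fold (miR-206 over control) of the 7 was 0.15, against -0.11 over all tested genes. Of the 7 members, 2 had both miR-206 libraries above both control libraries and 2 had them below, against 29.7% and 32.3% of all tested genes. The other 3 overlapped between the groups.

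**Figure D1:**
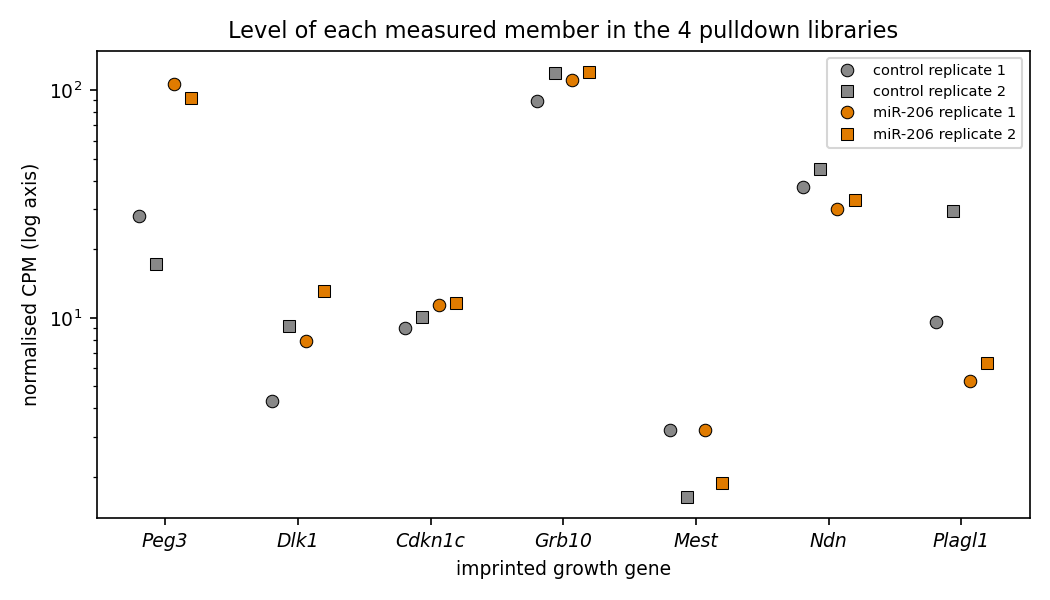
Normalised CPM (library-size-scaled counts, log axis) of the 7 measured members in each library, with control libraries in grey and miR-206 libraries in orange, circles for replicate 1 and squares for replicate 2. Peg3 lies at 92.4 and 106 with miR-206 and at 17.2 and 28.0 with the control mimic, while the control values of Plagl1 lie far apart, at 9.56 and 29.5.

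Peg3 (also Pw1), a paternally expressed zinc-finger gene whose product marks a class of interstitial progenitors in muscle, was the enriched member. It spans 6703892 to 6730462 of chromosome 7 (GRCm38.p6), and its row carries transcript ENSMUST00000155910. Its normalised CPM, scaled by the trimmed mean of M-values (TMM), were 28.0 and 17.2 in control replicates 1 and 2, and 106 and 92.4 in miR-206 replicates 1 and 2. Both miR-206 libraries were more than 3 times as high as either control library. The group means were 22.6 ± 7.64 and 99.2 ± 9.52 (SD, n = 2), which gave a log2 fold of 2.14 ± 0.32 (SE; 95% interval 1.46 to 2.81; edgeR quasi-likelihood adjusted p = 7.5e-05). Without unselected RNA, stronger capture and a higher level in the transfected cells cannot be told apart, nor can more cells of a type and more RNA per cell, for any member. The Peg3 fold lay at percentile 92.4 of all tested genes. The call held in all 14 tests run under other settings, but the size depended on the scaling. It was 0.98 with total counts alone (edgeR adjusted p = 0.0255) and 1.01 on log2(TPM + 1) (limma adjusted p = 0.0398), settings in which the median of all genes moved to -1.22 and -0.70. Relative to that median, Peg3 stood 2.24 higher with TMM, 2.20 higher with total counts and 1.71 higher with TPM.

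Plagl1 (also Zac1), a paternally expressed zinc-finger transcription factor that regulates a network of other imprinted genes in mouse, was the depleted member. It lies on chromosome 10 from 13090832 to 13131694, and its row carries transcript ENSMUST00000124252. Its normalised CPM were 9.56 and 29.5 with the control mimic and 5.29 and 6.35 with miR-206. The groups did not overlap, yet control replicate 1 lay nearer to the miR-206 libraries than to control replicate 2. The log2 fold came to -1.75 ± 0.49 (SE; 95% interval -2.80 to -0.69; edgeR adjusted p = 0.0203). Without control replicate 2 it was -0.71 and no longer passed (edgeR adjusted p = 0.294), and without control replicate 1 it was -2.34. The call was also lost on median-centred TPM, at -1.0001 (limma adjusted p = 0.157). In the authors' deposited table the log2 fold is -2.62. Its miR-206 mean of 0.967 TPM lay below 1, and both the mean and its log2 are given as 0 there. Among the other settings, the log2 fold was -2.79 with total counts alone, -2.38 on log2(TPM + 0.1) and -1.72 on log2(TPM + 1).

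**Figure D2:**
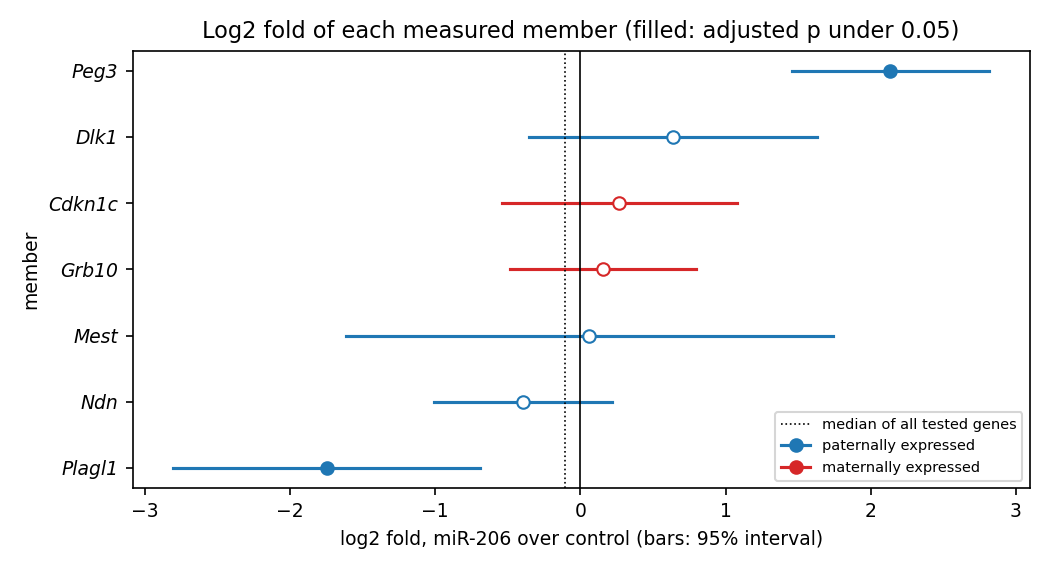
Log2 fold (miR-206 over control, x axis) of each measured member with its 95% interval, blue for paternally and red for maternally expressed genes, filled where the adjusted p is under 0.05. Peg3 at 2.14 and Plagl1 at -1.75 are the filled points, and the other 5 intervals cross 0.

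Ndn encodes necdin, a MAGE-family protein that restrains cell division and fat cell formation, and it lies on chromosome 7 from 62348277 to 62349928. Its normalised CPM were 37.6 and 45.0 with the control mimic and 29.9 and 32.8 with miR-206. The groups did not overlap, with the miR-206 libraries lower. The log2 fold came to -0.39 ± 0.29 (SE; 95% interval -1.01 to 0.22), which did not pass (edgeR adjusted p = 0.376). With total counts alone it was -1.498 (edgeR adjusted p = 0.00116) and on log2(TPM + 1) it was -1.27 (limma adjusted p = 0.00733). Against the median of all genes Ndn stood 0.29 lower with TMM, 0.27 lower with total counts and 0.57 lower with TPM.

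Dlk1 (Pref-1), an epidermal-growth-factor-like membrane protein that keeps preadipocytes from becoming fat cells, lies on chromosome 12 from 109452485 to 109463336. It held 62 and 175 estimated counts with the control mimic and 72 and 149 with miR-206, or 4.32 and 9.18 against 7.93 and 13.1 normalised CPM. Replicate 1 was the lower library in both groups, and the groups overlapped. The log2 fold came to 0.64 ± 0.47 (SE; 95% interval -0.36 to 1.63; edgeR adjusted p = 0.377). On the TPM scale the libraries of each number were nearly equal, at 3.78 and 3.796 for replicate 1 and 8.10 and 7.82 for replicate 2. These TPM are not on an equal total, since all gene rows summed to 743941 and 729176 in the control and 665223 and 629789 in the miR-206 libraries. The log2 fold ran from 0.20 without control replicate 1 to 1.29 without control replicate 2, and neither passed (edgeR adjusted p = 0.765 and 0.0750).

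Mest (Peg1), an enzyme of the alpha/beta-hydrolase fold whose level follows the expansion of fat tissue, lies on chromosome 6 from 30733506 to 30748466. It was the least counted member, with 46.3 and 31.3 estimated counts with the control mimic and 29.4 and 21.5 with miR-206. Its normalised CPM were 3.22 and 1.64 with the control mimic and 3.23 and 1.89 with miR-206, so the groups overlapped. The log2 fold was 0.06 ± 0.80 (SE), and its 95% interval of -1.62 to 1.74 covers changes of up to about 3-fold either way (edgeR adjusted p = 0.969). Its ratio of estimated counts to TPM, which follows the mean length of the transcripts counted, stood at 0.700 of the median gene's ratio in control replicate 1 and between 0.251 and 0.306 in the other 3 libraries. For each of the other 6 measured members the ratio was nearer to equal across the libraries. For Peg3, for example, it lay between 3.48 and 3.53.

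The maternally expressed pair showed no call. Cdkn1c (p57Kip2), an inhibitor of cyclin-dependent kinases on chromosome 7 from 143458339 to 143461059, had 8.98 and 10.1 normalised CPM with the control mimic and 11.3 and 11.6 with miR-206. Both miR-206 values lay above both control values, and the log2 fold was 0.27 ± 0.38 (SE; 95% interval -0.54 to 1.08; edgeR adjusted p = 0.674). Grb10, an adaptor that restrains signalling from the insulin and IGF receptors, lies on chromosome 11 from 11930499 to 12037428. It had 89.4 and 118 normalised CPM with the control mimic and 111 and 120 with miR-206, which overlapped. Its log2 fold was 0.15 ± 0.30 (SE; 95% interval -0.49 to 0.80; edgeR adjusted p = 0.769). The sign of both genes turned with the scaling. With total counts alone the log2 folds were -0.84 for Cdkn1c (edgeR adjusted p = 0.105) and -0.94 for Grb10 (edgeR adjusted p = 0.00839). In TPM, both miR-206 values lay below both control values for each gene. Cdkn1c had 7.25 and 7.73 TPM with the control mimic and 4.52 and 4.95 with miR-206. For Grb10 these were 26.6 and 33.2 against 16.4 and 18.9.

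**Figure D3:**
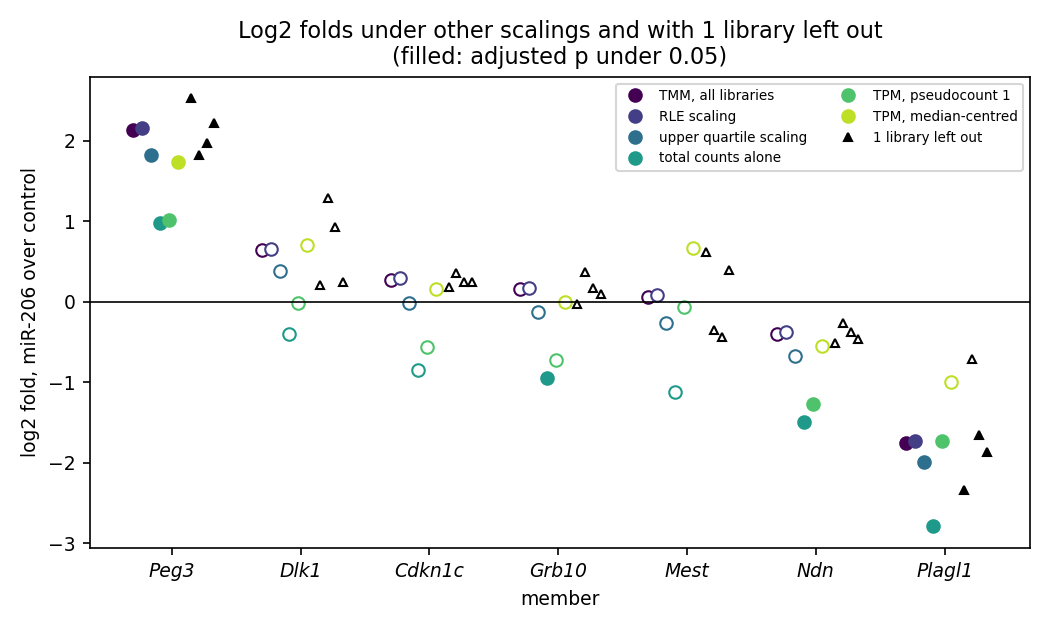
Log2 fold (y axis) of each measured member under 6 scalings (coloured circles) and with 1 library left out (triangles), filled where the adjusted p is under 0.05. Peg3 stays above 0 and Plagl1 below 0 in every setting shown, and the other members except Ndn have values on both sides of 0.

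Set by parent of origin, the 5 paternally expressed members had a median log2 fold of 0.06 and spanned -1.75 to 2.14. The 2 maternally expressed members lay at 0.15 and 0.27, with a median of 0.21, so both lay within the range of the paternally expressed ones. The difference of the medians, paternal minus maternal, was -0.15. It carries no test, because genes are not replicates. With a library left out it ran from -0.62 to 0.12, and on log2(TPM + 1) it was 0.59. Both members called were paternally expressed, and they went in opposite directions.

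Levels of different genes are compared per transcript length, as TPM. In the control libraries Ndn was highest at 37.7 ± 3.37 TPM (SD, n = 2) and Grb10 next at 29.9 ± 4.64. Their ranges did not overlap, but the gap was smaller than the sum of the SDs. Cdkn1c (7.49 ± 0.335), Plagl1 (6.15 ± 4.32), Dlk1 (5.94 ± 3.05), Peg3 (3.70 ± 1.44) and Mest (2.83 ± 0.173) followed, each pair of neighbours in that order having overlapping ranges. With miR-206, Grb10 led at 17.6 ± 1.80 TPM, ahead of Ndn at 15.1 ± 1.67, and Peg3 came next at 8.23 ± 0.391, above Dlk1 at 5.81 ± 2.85. Neither the gap from Grb10 to Ndn nor that from Peg3 to Dlk1 exceeded the sum of the SDs. Cdkn1c had 4.73 ± 0.298 TPM, within the range of Dlk1. Mest, at 2.70 ± 0.622, and Plagl1, at 0.967 ± 0.278, were lowest and did not overlap each other.

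The genes nearest to each member in pattern were found over the 4 libraries, among the 8601 genes that averaged 10 normalised CPM or more, by the distance between centred log2(CPM + 1) profiles. For Peg3 they were Vegfa and Kdm2b (distances 0.125 and 0.127), and for Plagl1 Cdc25a and Enoph1 (0.377 and 0.382). Plagl1 thus had no gene as near to it as the other members had, whose nearest genes lay at 0.0332 (Cdadc1, for Ndn) to 0.125. The added 1 flattens the profiles of low members such as Mest, at 1.64 to 3.23 normalised CPM, so distances are not strictly comparable between members. With 4 libraries such likeness is a description only.

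The domain neighbours of the members were taken from a list of 42 other imprinted genes, of which 36 had a row and 27 were tested. In the domain of H19, the neighbour Igf2, a paternally expressed fetal growth factor, was enriched. It lies on chromosome 7 from 142650768 to 142666816 and had 11.8 and 12.4 normalised CPM in the control pulldowns against 907 and 345 in the miR-206 libraries. All miR-206 values were more than 25 times the control values, although the miR-206 libraries differed from each other. The log2 fold came to 5.69 ± 0.50 (SE; 95% interval 4.62 to 6.76; edgeR adjusted p = 7.6e-07), and the call held in all 14 tests under other settings. The size moved, from 4.17 on log2(TPM + 1) and 4.52 with total counts alone to 6.22 without miR-206 replicate 2, and it was 4.79 without miR-206 replicate 1.

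Beside Peg3 lies Zim1, a zinc-finger gene of the same domain that is expressed from the maternal copy (chromosome 7, 6674444 to 6696540). It was enriched too, with 0 and 17 estimated counts with the control mimic and 56 and 57 with miR-206. The log2 fold was 3.56 ± 1.08 (SE; edgeR adjusted p = 0.0319). The call was lost when miR-206 replicate 1 was left out (edgeR adjusted p = 0.0539). The fitted log2 fold was 9.02 without control replicate 2, since the remaining control count is 0. It also missed the threshold with upper-quartile scaling (edgeR adjusted p = 0.0626) and with total counts alone (0.0945). Usp29, a paternally expressed ubiquitin protease gene of the same domain, was too low to be tested, with 1 and 9 estimated counts with the control mimic and 0 in both miR-206 libraries.

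With TMM scaling, no other domain neighbour with at least 1 normalised CPM in a group was called. In the Dlk1 domain, Dio3, a deiodinase that inactivates thyroid hormone, had 39.3 and 33.1 normalised CPM with the control mimic and 40.9 and 28.4 with miR-206. The groups overlapped, and its log2 fold was -0.06 ± 0.30 (SE; edgeR adjusted p = 0.912). It was depleted with total counts alone, at -1.21 (edgeR adjusted p = 0.00559), and on log2(TPM + 1), at -0.96 (limma adjusted p = 0.0275). The retrotransposon-derived gene Rtl1 was low, with between 7.36 and 42.0 estimated counts a library, and had a log2 fold of -0.59 ± 1.06. Beside Cdkn1c, Slc22a18, a membrane transporter, had a log2 fold of 0.84 ± 1.05 on 6 to 27 counts a library. Around Ndn, the splicing-protein gene Snrpn (-0.08), Peg12 (-0.13), the ubiquitin ligase gene Ube3a (-0.03) and the lipid flippase gene Atp10a (-0.12) all lay within 0.15 of 0, with intervals that together span -0.95 to 0.72. With total counts alone, where the median of all genes was -1.22, all 4 were depleted, at -1.16 for Snrpn, -1.19 for Peg12, -1.15 for Ube3a and -1.19 for Atp10a (edgeR adjusted p between 0.00391 and 0.0314). Ube3a was also depleted on log2(TPM + 1), at -0.85 (limma adjusted p = 0.0401).

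**Figure D4:**
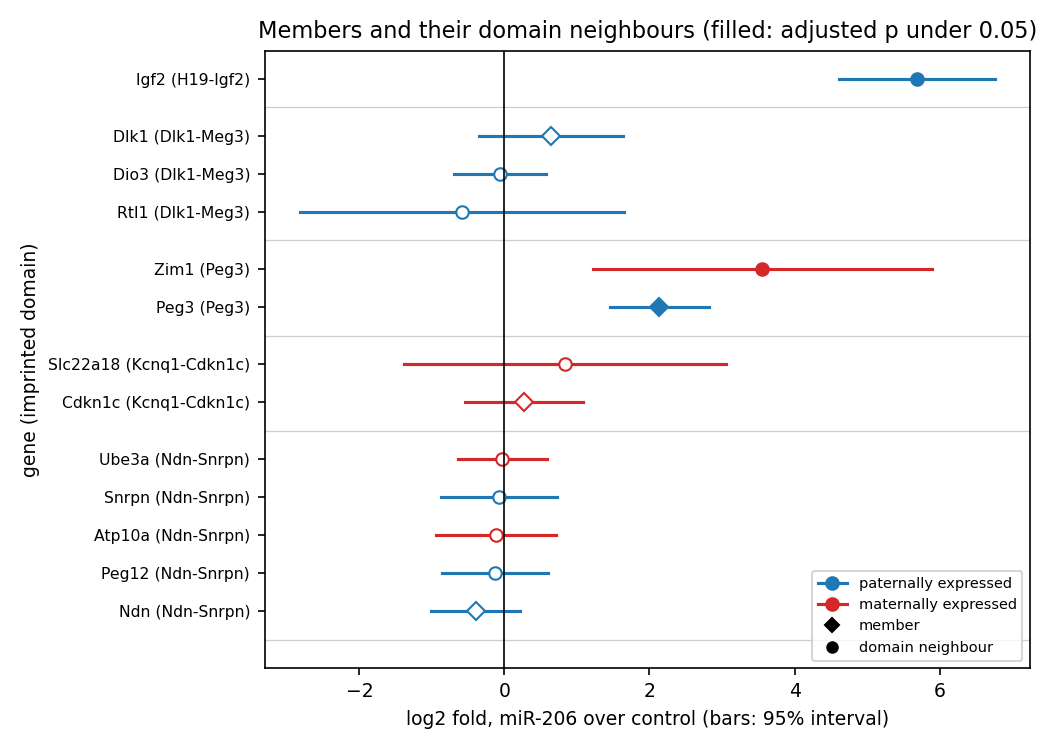
Log2 fold (x axis) with its 95% interval for members (diamonds) and domain neighbours (circles), grouped by imprinted domain, blue for paternally and red for maternally expressed genes, filled where the adjusted p is under 0.05. Igf2, Zim1 and Peg3 are filled on the right, and the neighbours of Ndn sit around 0 with this TMM scaling.

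Over the whole wider list, 7 of 27 tested genes were enriched and 1 depleted, with a median log2 fold of -0.06 against -0.11 for all tested genes. The background shares are those given above, 15.3% and 6.19%. Besides Igf2 and Zim1, the enriched genes were Inpp5f, an inositol phosphatase (1.17 ± 0.31, SE), Sgce, the epsilon-sarcoglycan of the cell membrane (1.17 ± 0.31), Sfmbt2, a Polycomb protein (1.24 ± 0.37), Trappc9, a vesicle tethering factor (1.13 ± 0.39), and Ppp1r9a, an actin-binding phosphatase partner (2.11 ± 0.66). Ppp1r9a was named after its value was seen, and its log2 fold ran from 1.37 without control replicate 2 to 3.58 without control replicate 1. The depleted gene was Gab1, an adaptor of receptor tyrosine kinases (-1.48 ± 0.44; edgeR adjusted p = 0.0211). Of these 8, Igf2 alone kept its call whichever single library was left out. Without miR-206 replicate 1 the edgeR adjusted p was 0.203 for Sgce, 0.0563 for Inpp5f, 0.122 for Sfmbt2, 0.307 for Trappc9 and 0.215 for Ppp1r9a. Without miR-206 replicate 2 it was 0.0953 for Inpp5f, 0.184 for Sfmbt2, 0.277 for Trappc9 and 0.210 for Gab1. Without control replicate 1 it was 0.0504 for Trappc9 and 0.0855 for Gab1, and without control replicate 2 it was 0.0663 for Sfmbt2. By parent of origin, 4 of 18 paternally expressed genes were enriched and 1 depleted, and 3 of 8 maternally expressed ones were enriched and 0 depleted. The remaining gene of the list was put in neither class, and no test of that difference was made. These classes too are background, and the expressed copy was not measured in these cells.

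**Figure D5:**
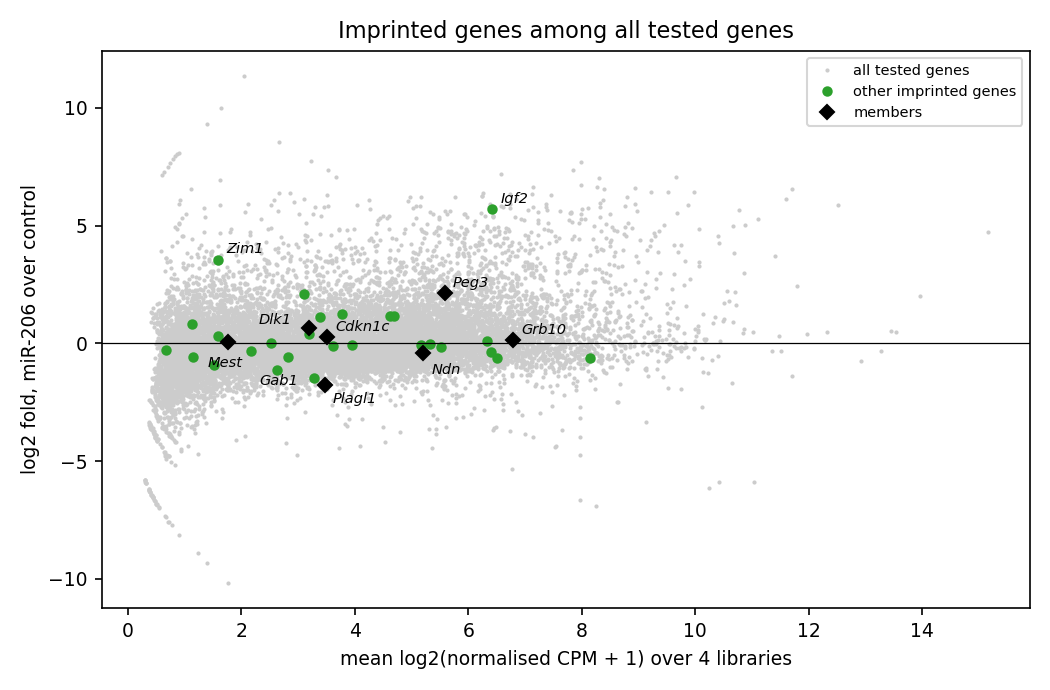
Log2 fold (y axis) against the mean log2(normalised CPM + 1) over the 4 libraries (x axis) for the 15240 tested genes (grey), the tested members (black diamonds) and the other tested imprinted genes (green). Igf2 at 5.69 and Zim1 at 3.56 lie above Peg3 at 2.14, and most imprinted genes lie within the grey band.

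In depth, the control libraries summed to 8883200 and 14261600 estimated counts, and the miR-206 libraries to 14566600 and 15426700. The TMM factors that scale library size were 1.62 and 1.34 in the control and 0.624 and 0.737 in the miR-206 libraries. Without these factors, with total counts alone, the median log2 fold of all tested genes was -1.22, against -0.11 with TMM. A count of 3 corresponds to between 0.157 and 0.330 normalised CPM, a floor that covers counting error only. The FAP markers fixed by name all had a row, with summed TPM of 2178 and 2926 in the control and 3988 and 4218 in the miR-206 libraries, among them Ly6a, the gene of Sca1, at 1435 to 1944. Cd34, Thy1 and Osr1 of these 8 were enriched, against 15.3% of all tested genes. From control to miR-206, mean TPM went from 153 to 924 for Cd34, 36.7 to 145 for Thy1 and 92.8 to 1322 for Osr1. It was lower with miR-206 for Ly6a (1691 to 1467), Dcn (420 to 159), Pdgfra (129 to 68.8), Pdgfrb (25.1 to 16.6) and Dpp4 (3.81 to 1.41). With TMM none of them was called, and only Dcn had a negative log2 fold (-0.48). The TMM log2 folds of the others were 0.73 (Ly6a), 0.33 (Pdgfrb), 0.29 (Dpp4) and 0.03 (Pdgfra). Markers of other cell types that the sort could hold had lower sums, though over 5 genes a list against 8. The FAP sum also held Ly6a, at 1439 and 1944 TPM in the control libraries. Summed TPM were 30.2 to 78.6 (endothelial), 4.25 to 18.4 (haematopoietic), 25.4 to 39.5 (myogenic) and 56.1 to 96.2 (smooth muscle and pericyte). Of these lists of 5, 1 endothelial gene (Cdh5), 2 myogenic genes (Myod1 and Myog) and 1 smooth muscle and pericyte gene (Rgs5) were enriched, and 0 were depleted in any. Rgs5 had 3.56 and 4.85 TPM with the control mimic and 71.2 and 37.7 with miR-206, Myod1 3.39 and 0.453 against 10.1 and 6.40, and Myog 18.3 and 22.1 against 25.7 and 15.8. Some defining markers were near 0, with the satellite cell gene Pax7 at 0 to 0.102 TPM and the T cell gene Cd3e at 0 to 0.154. Others were not. The myeloid gene Itgam reached 9.72 TPM in control replicate 1, and the endothelial gene Pecam1 73.5 there and 24.1 to 31.0 elsewhere. Acta2, of smooth muscle, had 65.6 TPM in both controls and 23.7 and 17.1 with miR-206. Of the FAP markers, Thy1 had 33.3 and 40.2 TPM with the control mimic and Pdgfrb 22.5 and 27.6. Endothelial and haematopoietic sums were highest in control replicate 1, the library in which Plagl1 was the lower of the controls, and the part of other cell types in the members' values was not tested.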

How the data were processed

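The authors' estimated counts came from kallisto and mm10, per the submitters' processing notes, which also name FastQC, with versions and the step from transcripts to genes not given in the sources used here. TPM values are the authors', per the file headers. Their sum over the gene rows was lower in the miR-206 libraries, and they were not rescaled except where median-centred. The deposited table also gives each group's mean TPM signal, set to 0 below 1, and its log2 and log2 fold, computed without a test. Each per-sample column was matched by the barcode in a sample's title, and 0 were left unmatched.

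Counts were rounded and tested with edgeR 4.0.16 (R 4.3.3; glmQLFit and glmQLFTest, robust) with TMM scaling on the 15240 genes kept by filterByExpr, group being the only term, with Benjamini-Hochberg adjustment over these genes. The SE is |log2 fold| over the root of the F statistic. TPM were tested with limma 3.58.1, and DESeq2 1.42.0 was an alternative. The edgeR step was run on simulated counts in which as many genes were raised as lowered. That run does not bear on the choice of scaling in these data. Members and lists were chosen with earlier results of these data known. Named beside the members are domain neighbours with at least 1 normalised CPM, and up to 4 enriched and 4 depleted other imprinted genes with the smallest p. Replicates of a group differed by more than counting noise. Same-numbered libraries did not deviate together (r = -0.08). Loci are RefSeq's (GRCm38.p6).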

Additional observations from a re-analysis of the deposited data

How the results depend on the processing

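Of 14 tests under other settings, Peg3 was called in 14, Plagl1 in 12, Ndn in 3 and Grb10 in 1, and Dlk1, Mest and Cdkn1c in 0. Over all alternatives, the authors' deposited folds included, 23 values of the members turned direction; the cause was not tested. Over all genes 2327 were enriched and 944 depleted with TMM, against 1070 and 6909 with total counts alone, 1093 and 5860 on log2(TPM + 1), 1102 and 5842 on log2(TPM + 0.1), and 1870 and 1962 with the upper quartile; leaving out 1 library gave 1721 to 2533 and 456 to 1567 (456 without miR-206 replicate 1, 1567 without control replicate 1). The enriched share of calls was 71.1% with TMM, 48.8% with the upper quartile, 13.4% with total counts and 15.7% with TPM. Members depleted were 3 with total counts (Plagl1, Ndn and Grb10), 2 with either TPM pseudocount, 0 with median-centred TPM and 0 to 1 with a library left out. Of the wider list, 1 was enriched and 12 depleted with total counts, 2 and 8 with either TPM pseudocount, 3 and 2 with the upper quartile, 3 and 0 with median-centred TPM, and 1 to 6 and 0 to 2 with a library left out. Paternal minus maternal medians were 0.59 and 0.62 with TPM pseudocounts of 1 and 0.1, 0.59 median-centred, and -0.62 to 0.12 with a library left out.

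Log2 folds turned direction as follows. With total counts alone they were -0.41 (Dlk1), -1.12 (Mest), -0.84 (Cdkn1c), -0.94 (Grb10) and -0.32 (Slc22a18). With the upper quartile they were -0.26 (Mest), -0.019 (Cdkn1c) and -0.12 (Grb10). With TPM pseudocounts of 1 and 0.1 they were -0.020 and -0.021 (Dlk1), -0.059 and -0.082 (Mest), -0.57 and -0.65 (Cdkn1c), -0.73 and -0.75 (Grb10), -0.027 and -0.028 (Inpp5f) and -0.29 and -0.39 (Sfmbt2), and -0.024 for Slc22a18 with 1. Median-centred TPM gave -0.0027 (Grb10), 0.47 (Rtl1) and 0.038 (Atp10a). The authors' deposited table has -0.032 (Dlk1), -0.068 (Mest), -0.66 (Cdkn1c) and -0.76 (Grb10). Leaving out a library gave -0.44 to 0.62 (Mest), -0.033 to 0.37 (Grb10), -1.40 to 1.37 (Rtl1), -0.40 to 0.17 (Dio3), -0.48 to 0.48 (Snrpn), -0.53 to 0.41 (Peg12), -0.22 to 0.10 (Ube3a) and -0.42 to 0.29 (Atp10a). With the replicate number as a block, 2576 genes were enriched and 1129 depleted; Peg3 (2.17) and Plagl1 (-1.56) stayed the only members called. The labels do not say that a number marks a shared batch, so the block is given here only.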
